A study of Mus musculus with 12 samples.

Results

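Epithelial repair and EGF receptor signalling in mouse colon were described here through 9 genes chosen by name: the receptor ligands Areg, Ereg, Hbegf and Tgfa, the EGF receptor gene Egfr, and the repair-associated genes Anxa1, Cd44, Clu and Ly6a. Every probe that the platform's annotation table gives to one of these genes was taken. That table holds 21 probes for 6 of the 9 genes, of 45281 probes on the array, and 14 of the 21 passed the detection filter. The 6 genes were among 11933 genes tested. Areg, Clu and Ly6a have no probe in the annotation used and were not analysed here.

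Ligands of the EGF receptor are made as membrane-bound precursors and are cut loose by proteases of the ADAM family, chiefly the product of Adam17. Binding of a ligand turns on the receptor's kinase, which feeds the ERK cascade and, in the intestine, drives the migration and division of epithelial cells that close a wound. During healing, intestinal epithelium also takes on genes of fetal gut and of YAP and TEAD target programmes, among them Anxa1, Clu and Ly6a, and Cd44 encodes a receptor for hyaluronan that is found on crypt cells and on many leukocytes.

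The colon of male mice of 7 to 8 weeks was profiled on 12 Illumina bead arrays, 3 for each of 4 groups. Control mice carry that label alone. The DSS group received dextran sulfate sodium, which injures the colon lining and is a common way to induce colitis. The other groups received DSS as well, together with DAPP either before or during DSS. DAPP is the labels' abbreviation, in a series on apple peel polyphenols, and the column names of the table add 200 to the earlier and 400 to the later DAPP treatment, without a unit, so timing and that number cannot be told apart. The labels used here give no strain, DSS dose, duration or vehicle. The labels call the samples biological replicates, and the p-values measure the spread between them.

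Levels below are background-corrected, quantile-normalised log2 intensities of 1 probe, and levels of different genes cannot be set against each other. Differences are on the same log2 scale with the standard error of limma's model over 3 arrays a group. The word called is used of genes whose p, after Benjamini-Hochberg adjustment across 11933 genes, was under 0.05. A probe counted as detected on an array at a detection p under 0.05. Whole tissue was measured, so fewer cells of a type and less RNA per cell cannot be told apart.

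Between 17650 and 21444 probes were detected per array. Replicate 1 of DAPP before DSS stood apart, with correlations of 0.828 to 0.914 with the other arrays over genes. Its mean log2 level of epithelial markers was 11.07, against 11.73 to 12.26 on the other arrays. That of the 4 lymphocyte markers tested was 9.57, against 6.06 to 8.29. Control and DSS arrays had a mean raw signal of 433 to 507, and the 6 DAPP arrays one of 601 to 728. What this contributes to a difference between DAPP and control cannot be told apart from the treatment. All 10 epithelial markers tested, among them Epcam, were detected in every group, and their summed linear level was 84901 to 97278 on control arrays, 77516 to 87643 on DSS arrays, 59564 to 99135 with DAPP before DSS and 92914 to 97223 with DAPP during DSS. Summed exocrine pancreas markers, 12 genes, ranged from 10596 to 16511 on control arrays, from 4894 to 214778 on DSS arrays, from 90751 to 205549 with DAPP before DSS and from 3652 to 240648 with DAPP during DSS. Arrays within the DSS group and within DAPP during DSS thus differed greatly in this tissue's transcripts. Every array of DAPP before DSS lay above every control array. Between those groups this marker level and the treatment cannot be told apart.

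The promoters of Cd44, Egfr and Anxa1 are shown because Cd44 and Egfr are the members called in a comparison and Anxa1 had the lowest adjusted p among the others. Each run is the 250 bases before the annotated start, 5′ to 3′ on the gene's strand, from RefSeq on GRCm38.p6. The Cd44 promoter lies at chr2:102901666-102901915 on the minus strand, the Egfr promoter at chr11:16751953-16752202 on the plus strand, and the Anxa1 promoter at chr19:20390672-20390921 on the minus strand. Capitals mark matches, on either strand, to the letters of 4 motifs: AP-1 (TGANTCA), TEAD (GGAATG), STAT (TTCNNNGAA) and NF-kappaB (GGG and CC parted by any 5 bases).
Cd44: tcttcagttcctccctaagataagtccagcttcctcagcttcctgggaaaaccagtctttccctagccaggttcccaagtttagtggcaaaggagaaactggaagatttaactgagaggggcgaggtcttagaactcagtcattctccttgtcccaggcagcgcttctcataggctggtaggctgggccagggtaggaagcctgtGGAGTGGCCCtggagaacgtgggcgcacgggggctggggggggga
Egfr: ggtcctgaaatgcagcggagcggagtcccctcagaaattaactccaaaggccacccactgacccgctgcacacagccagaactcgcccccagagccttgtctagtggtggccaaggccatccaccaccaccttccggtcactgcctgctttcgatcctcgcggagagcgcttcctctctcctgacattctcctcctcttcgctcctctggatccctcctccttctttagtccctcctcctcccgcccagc
Anxa1: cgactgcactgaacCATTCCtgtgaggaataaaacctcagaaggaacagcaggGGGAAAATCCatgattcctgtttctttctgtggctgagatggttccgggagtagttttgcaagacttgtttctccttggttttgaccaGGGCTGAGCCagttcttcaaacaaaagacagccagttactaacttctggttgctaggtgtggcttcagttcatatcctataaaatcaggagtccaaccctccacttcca
The Cd44 window holds 1 match, to the NF-kappaB letters on the strand opposite the gene, 45 to 36 bases before the start. The Egfr window holds 0 matches to the 4 motifs. The Anxa1 window holds 3, none overlapping another: 1 to the TEAD letters on the opposite strand, 236 to 231 bases before the start, and 2 to the NF-kappaB letters on the gene's strand, at 197 to 188 and 109 to 100 bases. Of 32851 promoter windows of the same length, 6.75% hold the AP-1 letters, 12.6% the TEAD letters, 7.02% the STAT letters and 45.8% the NF-kappaB letters, so the NF-kappaB letters are common. These matches are letters in a window and say nothing of binding.

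Of the 3 ligands measured, none was called in any comparison. Hbegf encodes heparin-binding EGF-like growth factor, a ligand of EGFR and ERBB4, and its probe ILMN_2698449 was detected on all 12 arrays. It read 7.63, 7.30 and 7.40 on the control arrays, 7.80, 8.11 and 7.66 with DSS, 7.93, 8.45 and 7.91 with DAPP before DSS, and 8.16, 7.77 and 7.86 with DAPP during DSS. Every array of a DSS-treated group lay above every control array, with DSS replicate 3 nearest to control replicate 1, and the DSS-treated groups overlapped each other. Against control, Hbegf differed by 0.41 ± 0.22 in DSS (adjusted p = 0.346), 0.65 ± 0.22 with DAPP before DSS (adjusted p = 0.0817) and 0.49 ± 0.22 with DAPP during DSS (adjusted p = 0.236). Its other probe, ILMN_2569725, was not detected on any array.

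Ereg encodes epiregulin, a ligand of EGFR and ERBB4 that supports growth of the intestinal epithelium. Its probe ILMN_1219065 sat at the limit of detection, on 0 control arrays, 1 DSS array and 2 arrays of each DAPP group. It read 4.72, 4.55 and 4.50 on the control arrays, 5.53, 4.86 and 4.84 with DSS, 6.66, 5.58 and 4.82 with DAPP before DSS, and 5.60, 5.55 and 4.93 with DAPP during DSS. All 9 arrays of DSS-treated mice read above the controls, and replicate 1 of DAPP before DSS was the highest of the 12. Ereg differed from control by 0.48 ± 0.39 in DSS (adjusted p = 0.579) and 0.77 ± 0.39 with DAPP during DSS (adjusted p = 0.302). With DAPP before DSS the difference was 1.09 ± 0.39 (adjusted p = 0.0988). Since the control arrays lay below detection, that last difference of group means, which was not called, is bounded as at least 1.11-fold higher. Here the control level is taken, per array, as the higher of its own signal and the lowest signal of any detected probe. The bound leaves out the spread between arrays. Without background correction the difference was 0.43 (adjusted p = 0.103). The adjusted p was 0.0202 without replicate 3 of DAPP before DSS, the group's lowest array. Without replicate 1, its highest, the difference was 0.60. With single arrays left out, the adjusted p ran up to 0.220, and 2 of 19 alternatives gave a call. The second Ereg probe, ILMN_2735702, was detected on 0 arrays.

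Tgfa encodes TGF-alpha, an EGF receptor ligand made by gut epithelium, and it was the member whose values lay below control. Its only probe, ILMN_2765162, read 5.21, 6.03 and 5.90 on the control arrays, 4.60, 5.58 and 5.52 with DSS, 4.63, 4.80 and 5.05 with DAPP before DSS, and 5.16, 5.18 and 4.98 with DAPP during DSS. It was detected on 2 control arrays, 2 DSS arrays and 0 arrays of either DAPP group. DSS overlapped control, whereas both DAPP groups lay wholly below it. The difference was -0.48 ± 0.29 in DSS (adjusted p = 0.426), -0.88 ± 0.29 with DAPP before DSS (adjusted p = 0.0764) and -0.61 ± 0.29 with DAPP during DSS (adjusted p = 0.270). As bounds, the DAPP groups were at least 1.21-fold and at least 1.44-fold lower than control. Without control replicate 1, the undetected control, the adjusted p with DAPP before DSS was 0.0468, and without DSS replicate 1 it was 0.0371. That difference was called under 3 of 19 alternatives, with an adjusted p of up to 0.234. Without background correction the difference was -0.30 (adjusted p = 0.156).

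Egfr encodes the receptor itself. The probe that represents it, ILMN_2693922, had the highest mean of its probes and read 9.37, 9.09 and 9.16 on the control arrays, 9.65, 9.91 and 9.49 with DSS, 10.98, 9.94 and 9.90 with DAPP before DSS, and 9.82, 9.73 and 9.70 with DAPP during DSS. All arrays of DSS-treated mice were above all controls, and replicate 1 of DAPP before DSS was about 1 log2 unit above the rest of its group. By group mean the order was control, DSS, DAPP during DSS and DAPP before DSS. DSS overlapped each DAPP group, and the DAPP groups did not overlap each other. Egfr was called with DAPP before DSS against control, at 1.06 ± 0.27 or 2.09-fold (adjusted p = 0.0265). It was not called in DSS, at 0.48 ± 0.27 (adjusted p = 0.380), or with DAPP during DSS, at 0.54 ± 0.27 (adjusted p = 0.293).

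The Egfr call depended on single arrays and on the probe. Without replicate 1 of DAPP before DSS the difference was 0.71 (adjusted p = 0.0271). Without control replicates 1, 2 or 3 in turn the adjusted p was 0.0558, 0.0931 and 0.0852, and with the mean of the pancreas markers as a covariate it was 0.198. Egfr with DAPP during DSS, not called, reached an adjusted p of 0.0467 without replicate 1 of DAPP before DSS, the only 1 of 20 alternatives to give a call. A second probe, ILMN_1241496, gave the other order of the DAPP groups: 0.46 ± 0.21 in DSS, 0.30 ± 0.21 with DAPP before DSS and 0.81 ± 0.21 with DAPP during DSS, the last with an adjusted p of 0.0425 over all 22359 kept probes. Probes ILMN_3128725 and ILMN_3052260, both annotated to a different RefSeq transcript of Egfr from that of ILMN_2693922, differed from control by -0.24 to 0.21 and were not called. On ILMN_3128725 replicate 1 of DAPP before DSS was the lowest of the 12 arrays at 6.43, whereas on ILMN_2693922 it was the highest. The remaining Egfr probes, ILMN_2614432 and ILMN_2581001, were detected on 2 and 0 arrays.

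Cd44 was called in both DAPP groups against control, the only one of the 6 genes with more than 1 call. The probe that represents it, ILMN_1223697, read 9.31, 9.63 and 9.38 on the control arrays, 10.84, 9.96 and 10.02 with DSS, 10.42, 10.29 and 10.67 with DAPP before DSS, and 10.53, 10.18 and 10.49 with DAPP during DSS. The lowest array of any DSS-treated group, at 9.96, lay above the highest control, and the 3 DSS-treated groups overlapped each other. Cd44 was called with DAPP before DSS against control, at 1.02 ± 0.25 or 2.03-fold (adjusted p = 0.0218), and with DAPP during DSS, at 0.97 ± 0.25 or 1.95-fold (adjusted p = 0.0359). In DSS alone it was 0.84 ± 0.25 or 1.79-fold and missed the threshold (adjusted p = 0.0726). The 3 comparisons share the control arrays and are not separate evidence.

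These calls had little margin. With DAPP before DSS the adjusted p for Cd44 was 0.0807 without control replicate 1, 0.0759 without control replicate 3, 0.0588 without that group's own replicate 3 and 0.0513 with the pancreas covariate. With DAPP during DSS it was 0.0698 to 0.126 when any control or own-group array was left out. In DSS it was 0.0454 without replicate 1 of DAPP before DSS, and the difference was 0.55 without DSS replicate 1 (adjusted p = 0.260).

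The Cd44 probes differed in size. ILMN_3114585 was detected on all 12 arrays and gave 0.39 ± 0.38 in DSS, 0.47 ± 0.38 with DAPP before DSS and 0.65 ± 0.38 with DAPP during DSS, none called. ILMN_2474229, detected on no control or DSS array and kept through the DAPP groups alone, gave 0.32 ± 0.33, 1.12 ± 0.33 (adjusted p = 0.0609) and 1.22 ± 0.33 (adjusted p = 0.0559). ILMN_2640330, ILMN_2754990 and ILMN_2697830 were detected on 5 to 8 arrays and differed from control by -0.08 to 0.57, none called. ILMN_1228214, the only Cd44 probe annotated to another RefSeq transcript than the other 8, was not kept. It was detected on 2 control arrays and on no other array, reading 5.18, 6.15 and 5.88 on control arrays and 4.76 to 5.16 elsewhere, the opposite direction to ILMN_1223697. ILMN_2730266 and ILMN_1246460 were each detected on 1 array.

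**Figure D1:**
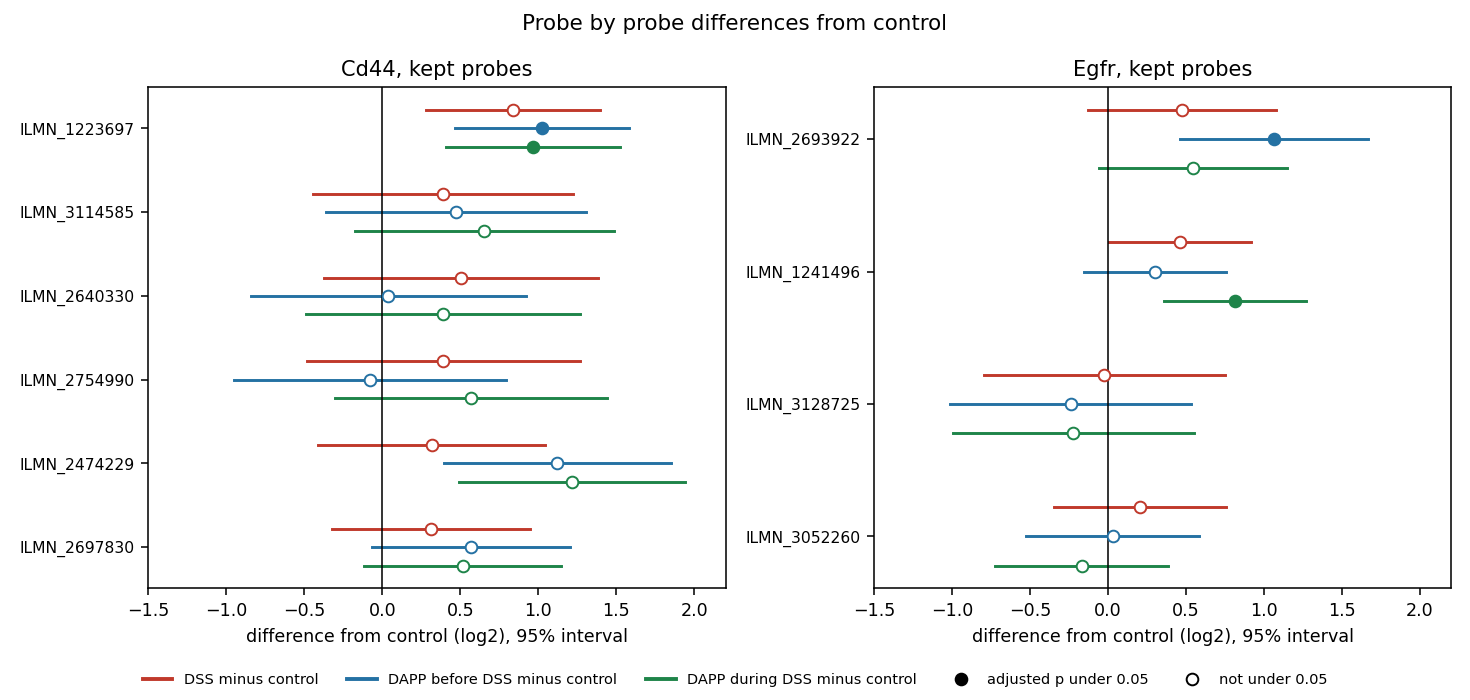
Difference from control of each kept probe of Cd44 (left) and Egfr (right), on the log2 scale, with its 95% interval from limma over 3 arrays a group. Filled points have an adjusted p under 0.05 over all 22359 kept probes: ILMN_1223697 of Cd44 in both DAPP groups, and 1 Egfr probe in each DAPP group, not the same probe.

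Probe by probe, calls were made for 2 of the 14 kept member probes with DAPP before DSS, where 8.12% of all kept probes were called, for 2 with DAPP during DSS, where 5.59% were, and for 0 in DSS, where 4.7% were. The plot of probe differences shows that the Egfr calls came from different probes in the 2 DAPP groups.

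Anxa1 encodes annexin A1, a calcium-dependent membrane-binding protein that limits leukocyte influx and aids mucosal repair. Its only probe, ILMN_1259252, read 9.03, 9.17 and 9.0 on the control arrays, 10.03, 10.08 and 9.31 with DSS, 10.47, 9.74 and 9.58 with DAPP before DSS, and 9.99, 9.88 and 9.87 with DAPP during DSS. The controls lay close to each other and below all other arrays, and DSS replicate 3 was the nearest to them. The difference from control was 0.74 ± 0.27 or 1.67-fold in DSS (adjusted p = 0.142), 0.86 ± 0.27 with DAPP before DSS (adjusted p = 0.0607) and 0.84 ± 0.27 with DAPP during DSS (adjusted p = 0.0828). Anxa1 was not called, but without replicate 1 of DAPP before DSS its adjusted p was 0.0390 in DSS and 0.0201 with DAPP during DSS. With DAPP before DSS it was 0.0410 without DSS replicate 3 and 0.0410 without that group's own replicate 3. Of 20 alternatives, 1 gave a call in DSS, 5 with DAPP before DSS and 1 with DAPP during DSS. With single arrays left out, the adjusted p reached 0.380, 0.160 and 0.210 in that order. Without replicate 1 of DAPP before DSS, the difference of that group from control was 0.59.

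**Figure D2:**
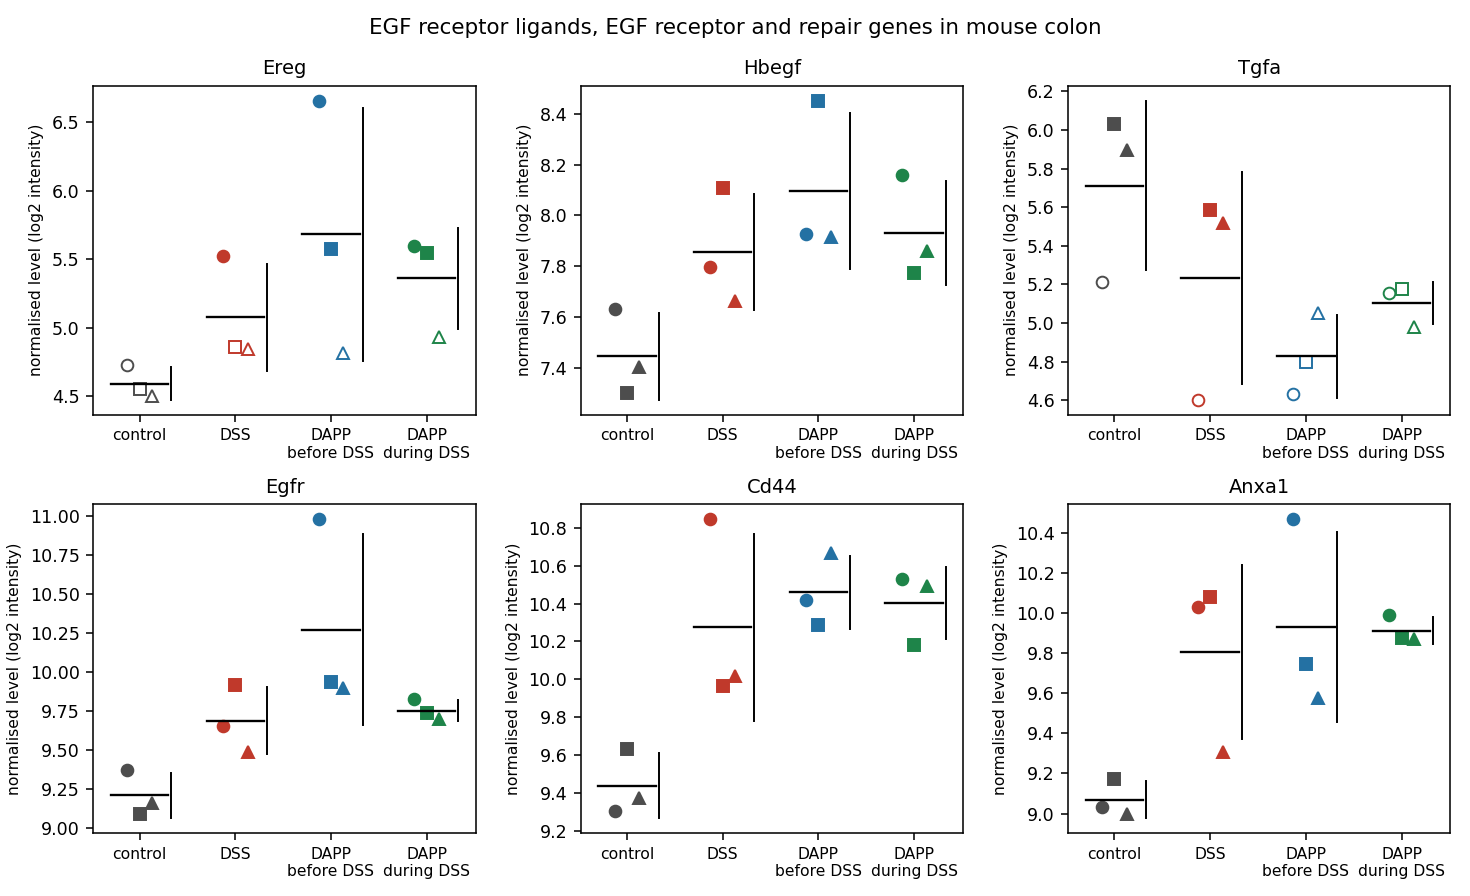
Normalised log2 intensity of the 6 measured genes on each of the 12 arrays; circles, squares and triangles are replicates 1, 2 and 3, filled where the probe was detected, horizontal lines are group means and vertical lines 1 SD (n = 3). Hbegf, Ereg, Egfr, Cd44 and Anxa1 lie above control on all arrays of DSS-treated mice, Ereg at the limit of detection, and Tgfa was not detected with DAPP.

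Taken by comparison, 0 of the 6 genes were called in DSS against control, where 6.71% of all genes were called, and 2 genes, Cd44 and Anxa1, were higher at an unadjusted p under 0.05, against 9.42% of all genes. In 5 of the 6 the DSS and control arrays did not overlap, with DSS higher, as was so for 13.8% of all genes. Here and in the DAPP comparisons below, 1 of the 5 was Ereg, kept only through arrays of DSS-treated mice. It was detected on 0 control arrays and 1 DSS array, so its order against control was largely one of undetected signals. The median difference of the 6 was 0.48 and that of all genes -0.04. With DAPP before DSS, 2 of 6 were called, where 11.2% of all genes were, both higher, where 6.27% were. In that comparison 5 did not overlap and were higher (14% of all genes) and 1, Tgfa, was lower (15.2%). With DAPP during DSS, 1 of 6 was called, against 7.68% of all genes and 4.53% called higher, and 5 were higher and 1 lower without overlap, against 18.8% and 22.1% of all genes.

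Markers of other cells moved with these differences, and their part in them was not tested. The 9 neutrophil markers tested summed to 433 to 497 on control arrays, where Csf3r, Cxcr2, Ngp, Clec4d and Trem1 were not detected, and to 16219 to 48216 with DSS, 29431 to 58873 with DAPP before DSS and 22114 to 34730 with DAPP during DSS. In DSS 8 of the 9 were called higher, led by S100a9 at 7.10 ± 0.42. The 9 macrophage markers summed to 6360 to 7351 on control arrays, where Fcgr1 was not detected, 15638 to 29836 with DSS, 20151 to 21402 with DAPP before DSS and 21170 to 23255 with DAPP during DSS, and 6 of 9 were higher in DSS. Fibroblast markers, 4 of 10 higher in DSS, summed to 23234 to 26263 on control arrays, 30247 to 43683 with DSS, 40899 to 46300 with DAPP before DSS and 39489 to 53921 with DAPP during DSS. Smooth muscle markers, 8 of 9 lower in DSS, summed to 74076 to 81494 on control arrays, 32789 to 46761 with DSS, 32053 to 51842 with DAPP before DSS and 34852 to 49204 with DAPP during DSS. The pan-leukocyte gene Ptprc was not detected on control arrays and differed in DSS by 0.37 ± 0.51 (adjusted p = 0.781). Epcam, the epithelial adhesion molecule, differed by -0.52 ± 0.32 (adjusted p = 0.433), and 0 of 10 epithelial markers were called.

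No member was called between DSS-treated groups. In DAPP before DSS against DSS, 0 of 6 members and 0% of all genes were called by limma, and 0 members but 4.48% of all genes had an unadjusted p under 0.05. The same counts were 0 members, 0% and 2.66% for DAPP during DSS against DSS, and 0 members, 0% and 4.06% for DAPP during against DAPP before DSS. The comparisons with DSS share the DSS arrays. For Cd44 the difference from DSS was 0.18 with DAPP before DSS (95% interval -0.36 to 0.73) and 0.13 with DAPP during DSS (-0.42 to 0.68). For Anxa1 it was 0.12 (-0.46 to 0.71) and 0.11 (-0.48 to 0.69). The intervals run to both sides of 0 and do not show equal levels. For Hbegf it was 0.24 (-0.24 to 0.72) and 0.08 (-0.41 to 0.56), for Ereg 0.61 (-0.25 to 1.46) and 0.29 (-0.57 to 1.14), and for Tgfa, near or below detection, -0.41 (-1.05 to 0.23) and -0.13 (-0.77 to 0.51). All these values are those of the probe that represents the gene. Cd44 probe ILMN_2474229 was detected on 0 control and 0 DSS arrays, on 2 with DAPP before DSS and on 3 with DAPP during DSS. It passed the detection filter only through the DAPP groups, where it was high, so its differences from DSS are descriptions only. They were 0.81 (0.08 to 1.53) and 0.90 (0.17 to 1.63), and as bounds at least 1.28-fold and at least 1.37-fold. These bounds leave out the spread between arrays. The unadjusted limma p of this probe was 0.0324 and 0.0192, and neither difference was called over all kept probes. The other kept Cd44 probes gave -0.47 to 0.26 and -0.11 to 0.27.

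By the probe that represents each gene, Egfr came nearest to a difference between DSS-treated groups. It was 0.58 higher with DAPP before DSS than with DSS (95% interval -0.01 to 1.18, adjusted p = 0.851), and 0.23 higher without replicate 1 of DAPP before DSS. Between the DAPP groups it was -0.52 with DAPP during DSS (-1.11 to 0.08, adjusted p = 0.842), and these groups did not overlap, as was so in that direction for 4.05% of all genes. That difference was -0.17 without replicate 1 of DAPP before DSS. These values are those of ILMN_2693922. Probe ILMN_1241496 gave the opposite sign for both comparisons, at -0.16 for DAPP before DSS against DSS (-0.61 to 0.29) and 0.51 between the DAPP groups (0.06 to 0.97, adjusted p = 0.834 over all kept probes). The DAPP groups did not overlap on that probe either, with DAPP during DSS higher, so the order of the DAPP groups depended on the probe.

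Among the other ligands of the ERBB receptors, Epgn and Nrg1 rose with DSS. Epgn encodes epigen, an EGF receptor ligand whose gene lies in a cluster with Areg, Ereg and Btc, and Nrg1 encodes neuregulin 1, a ligand of ERBB3 and ERBB4. Epgn read 5.26, 4.63 and 5.04 on the control arrays, 8.50, 7.18 and 6.53 with DSS, 8.27, 7.53 and 7.57 with DAPP before DSS, and 8.13, 7.85 and 7.47 with DAPP during DSS. No control array detected it and all 9 other arrays did, so the levels are bounded as at least 3.67-fold higher in DSS (adjusted p = 0.00453), 4.81-fold with DAPP before DSS (adjusted p = 0.00141) and 4.89-fold with DAPP during DSS (adjusted p = 0.00171). Its second probe, ILMN_1242634, was detected on 0 arrays.

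Nrg1 read 5.20, 5.39 and 5.12 on the control arrays, 8.94, 8.06 and 7.65 with DSS, 9.25, 8.73 and 8.90 with DAPP before DSS, and 9.19, 8.19 and 7.95 with DAPP during DSS. By this probe it was at least 6.46-fold higher in DSS (adjusted p = 0.000408), 10.8-fold with DAPP before DSS (adjusted p = 6.06e-05) and 7.56-fold with DAPP during DSS (adjusted p = 0.000197). A second Nrg1 probe, ILMN_2653385, was detected on 2 control arrays at 5.43 to 5.64 on controls and 6.28 to 8.19 elsewhere, again without overlap. Neither gene differed by call between DSS-treated groups. Epgn and Nrg1 remained called in DSS under each of the 19 alternatives that tested them, and a filter of detection p under 0.01 on all 12 arrays removed both. Without background correction the DSS differences were 1.05 for Epgn and 1.45 for Nrg1, against 2.43 and 2.98 with it.

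**Figure D3:**
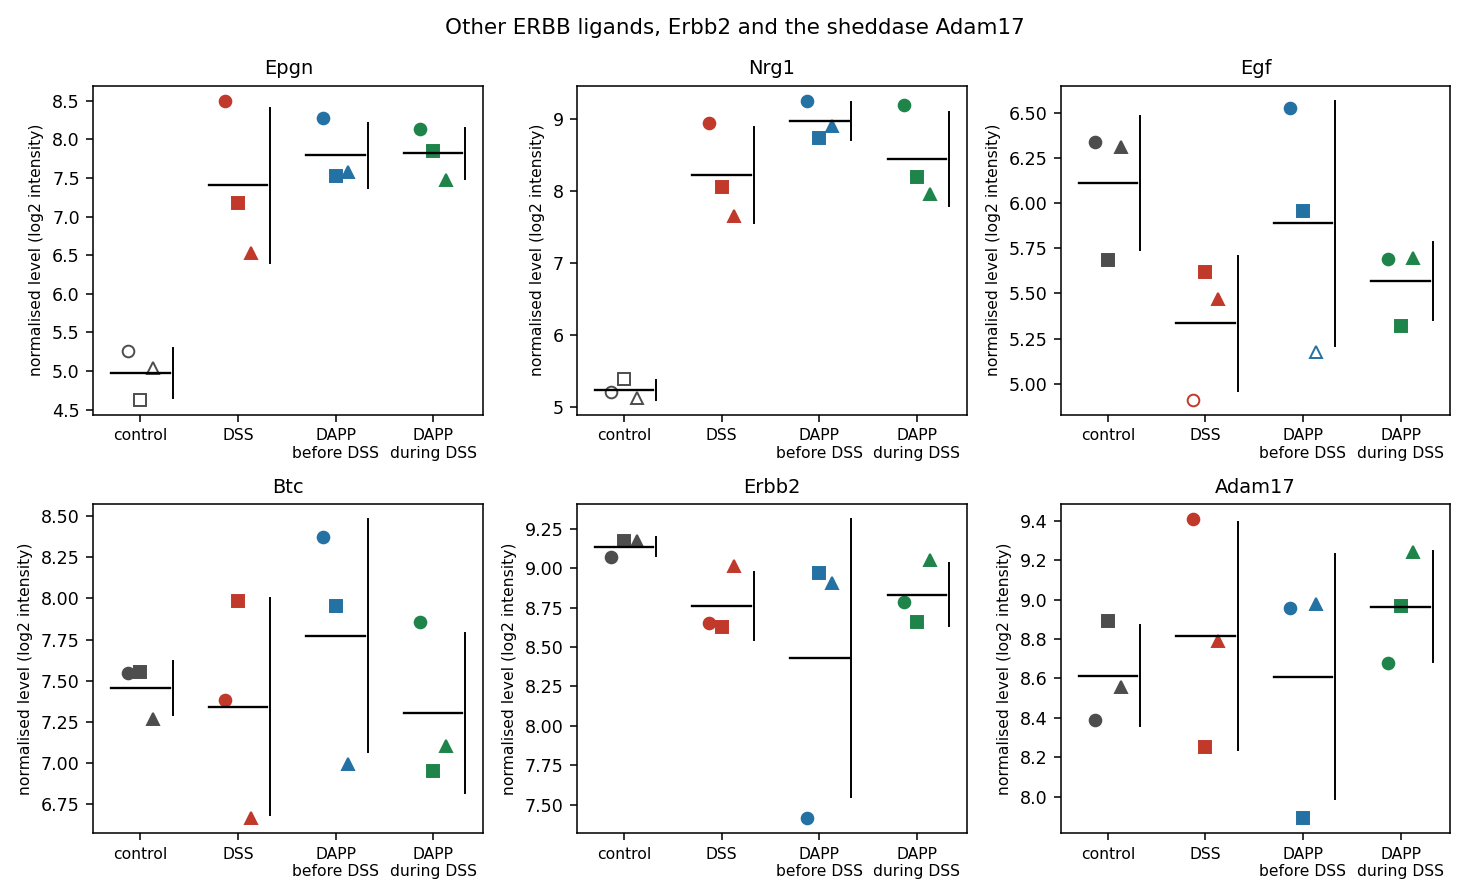
Normalised log2 intensity on each array of 4 further ERBB ligands, of Erbb2 and of Adam17, drawn like the members (circles, squares and triangles for replicates 1, 2 and 3, filled where detected, lines for mean and SD, n = 3). Epgn and Nrg1 are undetected on control arrays and lie above them on all others; the other 4 genes overlap or were not called.

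Apart from Epgn and Nrg1, no ERBB ligand, ERBB receptor, shedding gene, adaptor or kinase tested was called in DSS. Egf and Btc, the genes of EGF and betacellulin, differed in DSS by -0.78 ± 0.33 (adjusted p = 0.220) and -0.11 ± 0.40 (adjusted p = 0.930). Erbb2, the co-receptor of the family, differed by -0.37 ± 0.35 (adjusted p = 0.638), with replicate 1 of DAPP before DSS far below the other arrays at 7.41, and the probe of Erbb3 was not kept. The sheddase gene Adam17 differed by 0.20 ± 0.35 (adjusted p = 0.826), Rhbdf2, whose product escorts that sheddase, by 0.26 ± 0.42 (adjusted p = 0.814), and 0 of 7 genes of shedding were called in any comparison with control. Of 5 adaptors and kinases tested, 0 were called in any of these.

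Downstream, of 13 ERK target genes, 2 rose in DSS, 4 with DAPP before DSS and 3 with DAPP during DSS, and 0 fell. Of all genes, 3.91%, 6.27% and 4.53% were called higher in these comparisons. Plaur, the urokinase receptor gene, rose by 2.34 ± 0.37, 2.76 ± 0.37 and 2.01 ± 0.37 in that order, and Ier3, an immediate early gene, by 2.19 ± 0.34, 2.79 ± 0.34 and 2.01 ± 0.34. Dusp1, a phosphatase gene, rose by 1.84 ± 0.39 with DAPP before DSS (adjusted p = 0.0101), and Phlda1 by 1.23 ± 0.23 with DAPP during DSS (adjusted p = 0.00625). The median of the 13 was 0.23 in DSS, against -0.04 for all genes. Of 12 inhibitors that feed back on EGFR or ERK, 0 were called in DSS or with DAPP during DSS and 2 rose with DAPP before DSS, among them the phosphatase gene Ptpn1, by 1.64 ± 0.33 (adjusted p = 0.00720). Macrophages and neutrophils also express Plaur and Ier3, and the marker sums above were higher in the same groups. Which cells the rises came from was not tested.

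Other genes linked to repair and fetal-like epithelium went both ways. Of 15 tested, 2 rose and 2 fell in DSS, where 3.91% of all genes were called higher and 2.81% lower, and the median was 0.62. Reg3g, an antibacterial lectin of the gut surface, was not detected on control arrays and was at least 32.8-fold, 76.0-fold and 55.9-fold higher with DSS alone, with prior DAPP and with concurrent DAPP. Il33, a cytokine released by injured barrier cells, rose by 2.39 ± 0.46, 2.91 ± 0.46 and 2.65 ± 0.46. The keratin gene Krt17 fell, with differences of -2.61, -2.17 and -2.88 (SE 0.46), and Ly6g6c, which is also in the Ly6 list, fell, with differences of -2.32, -2.47 and -2.64 (SE 0.27). With DAPP before DSS 4 of the 15 rose and 2 fell, where 4.94% of all genes were lower, and with DAPP during DSS 3 rose and 2 fell, where 3.15% were lower.

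YAP and TEAD genes gave 2 rises and 0 falls of 12 in DSS, where 3.91% of all genes were called higher and 2.81% lower. Ankrd1, a YAP target, was undetected in control and at least 2.09-fold higher (adjusted p = 0.0269), and Tead4, which encodes a TEAD factor, at least 1.47-fold higher (adjusted p = 0.00926). The Ankrd1 call was lost without any control array, without DSS replicate 1 or 3, with the pancreas covariate and without background correction (adjusted p = 0.0511 to 0.127), and that of Tead4 without control replicate 3 and without background correction (0.0503 and 0.0571). Of 12 annexins and partners other than Anxa1, 1 rose, S100a11, whose product binds annexin A1, by 1.40 ± 0.19 (adjusted p = 0.00110). Fpr2, a receptor for annexin A1 and formylated peptides that neutrophils carry, rose by 5.14 ± 0.45 in DSS, 5.21 ± 0.45 with DAPP before DSS and 4.90 ± 0.45 with DAPP during DSS.

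Of 6 hyaluronan and CD44 partner genes tested, 1 rose in DSS, where 3.91% of all genes were called higher. It was Vcan, a hyaluronan-binding proteoglycan gene, not detected on control arrays and at least 1.75-fold higher (adjusted p = 0.0200). That call was lost without any 1 control array, without DSS replicate 1 and without background correction (adjusted p = 0.0554 to 0.125). In the DAPP groups Vcan was at least 2.91-fold (adjusted p = 0.00158) and at least 3.02-fold higher (adjusted p = 0.00177). Of 6 Ly6 family genes, relatives of Ly6a, Ly6c1 rose by 2.22 ± 0.35 and Ly6g6c fell in DSS. Of 8 crypt stem cell genes 0 were called in DSS, and Lgr5, the stem cell receptor gene, differed by -0.77 ± 0.36 (adjusted p = 0.270). Without replicate 1 of DAPP before DSS, the counts that rose in DSS were 4 ERK targets, 5 repair genes, 2 CD44 partners, 2 Ly6 family genes and 1 feedback inhibitor. Over all 11933 genes, calls in DSS in either direction also went up, from 801 with all arrays to 1523 without that array.

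**Figure D4:**
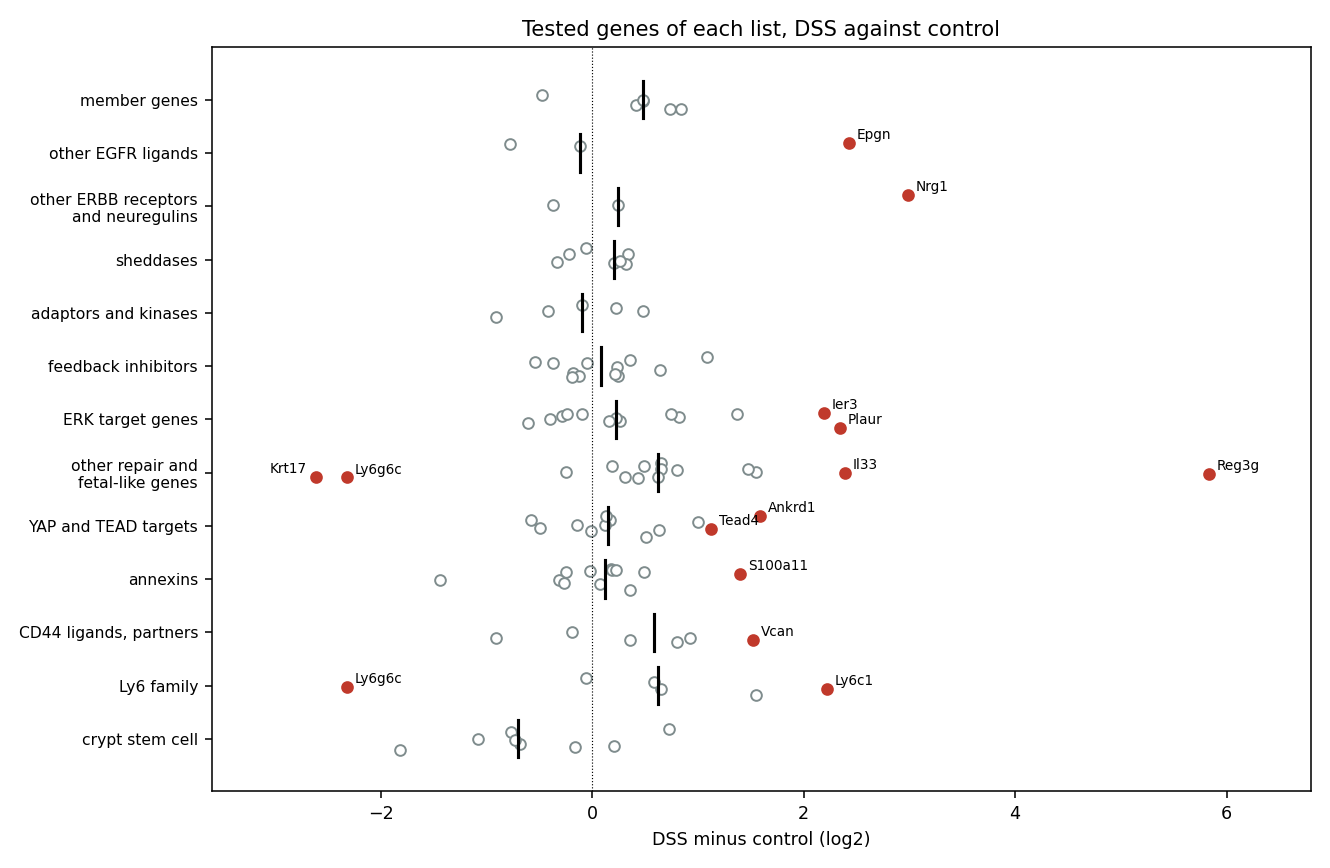
Difference between DSS and control, on the log2 scale, of each tested gene of 13 lists, 1 row a list; filled and named points were called over 11933 genes and black bars are list medians. The 6 member genes lie between -0.48 and 0.84 with 0 called, while single genes such as Epgn, Nrg1, Il33 and Reg3g lie far to the right.

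The genes whose profile over the 12 arrays lay nearest to those of Cd44 and Egfr were looked up after their values were seen. By root mean square difference of the centred log2 levels, Cd44 was nearest to Tgfbi (0.156) and Unc93b1 (0.160), where the median over all genes was 0.617. Egfr was nearest to Tor1aip1 (0.128) and Clvs2 (0.147), where the median was 0.598. These values are descriptions over 12 arrays in 4 groups.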

How the data were processed

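The deposited table holds, per the file headers, a signal intensity on a linear scale and a detection p-value for 45281 probes on each of 12 arrays, and 1949 blank lines, which were left out. GenomeStudio is named in the submitters' processing notes, with no version, and no label or header used here states how background was handled. The authors' processed intensity values have the ranks of the same columns and were used as an alternative.

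Intensities were corrected and quantile-normalised with neqc (limma 3.58.1, R 4.3.3), which infers the background from the detection p-values and adds an offset of 16, and put on a log2 scale. A probe was kept at detection p under 0.05 on at least 3 arrays, which left 22359. Probes were named through the platform annotation, 34807 of 34885 single symbols matching the gene table, and each of 11933 genes took its kept probe with the highest mean. A model of 4 groups was fitted to all 12 arrays with lmFit and eBayes (8 residual and 3.95 prior degrees of freedom) and p-values were adjusted over all genes (Benjamini-Hochberg), or over all kept probes for single probes. The detection floor used for bounds was 5.18 to 5.70. A bound puts this floor in place of lower undetected signals in the difference of means, and it leaves out the spread between arrays. The small number of arrays limits the precision.

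The 9 genes and all gene lists were chosen with earlier results of these data known. The text names every member probe, some pathway genes whatever their result, and up to 3 called genes a list and direction. Protein sequences were not used here.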

Additional observations from a re-analysis of the deposited data

How the results depend on the processing

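Alternatives were no background correction, the authors' processed values, other detection filters, equal medians, all kept probes, a pancreas marker covariate, a replicate block and leaving out each array. Of 708 values of member differences, 663 kept their direction and their side of the threshold, 14 lost a call, 14 gained one and 17 changed sign, the 17 all in comparisons not against control and never called. Counts of called members are given with those of all 11933 genes in the same settings in brackets. In DSS the count was 0 (801 genes) and ranged from 0 to 2 when single arrays were left out (429 to 1523 genes). With DAPP before DSS it was 2 (1338 genes), 0 with the pancreas covariate (684 genes) and 5 with the replicate block (1378 genes). Without single arrays it was 0 to 3 (776 to 1543 genes). With DAPP during DSS it was 1 (917 genes) and ranged from 0 to 3 (443 to 1722 genes). The labels used here do not say whether equal replicate numbers pair samples. Deviations of same-numbered arrays correlated at -0.32 to 0.40, over 0.1 in 3 of 18 pairs. Those of other-numbered arrays correlated at -0.42 to 0.45, over 0.1 in 8 of 36 pairs. With 3 arrays a group this cannot show that the samples are unpaired, and the block is given as a setting only. Ranges without single arrays that crossed 0 were, for DAPP before DSS against DSS, Anxa1 -0.14 to 0.30. For DAPP during DSS against DSS they were Hbegf -0.039 to 0.20, Tgfa -0.45 to 0.043, Egfr -0.033 to 0.18, Cd44 -0.027 to 0.41 and Anxa1 -0.14 to 0.24. Between the DAPP groups they were Ereg -0.76 to 0.16, Hbegf -0.28 to 0.011, Cd44 -0.14 to 0.054 and Anxa1 -0.19 to 0.25, and Anxa1 was 0.0023 with equal medians. The cause was not tested. Over all genes, calls in DSS numbered 801 and 429 to 1523 across alternatives, with DAPP before DSS 1338 and 684 to 1543, and with DAPP during DSS 917 and 443 to 1722. The highest count in each came without replicate 1 of DAPP before DSS. Ereg and Tgfa, near the detection floor, were removed by the filter of detection p under 0.01 on all 12 arrays.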

Other observations

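Axin2, a Wnt target of crypt stem cells, was lower with DAPP before DSS than in control, by a difference of -2.02 ± 0.59 (adjusted p = 0.0459), and the only 1 of 8 crypt stem cell genes called, where 11.2% of all genes were. That call held under 7 of 19 alternatives (adjusted p = 0.0101 to 0.162). In DSS the difference was -1.82 (adjusted p = 0.0947). Of 9 endothelial markers, 0 were called in DSS, 2 with DAPP before DSS and 1 with DAPP during DSS, with medians of 0.32, 0.69 and 0.58, where 6.71%, 11.2% and 7.68% of all genes were called. Of 4 lymphocyte markers, 2 rose in DSS, the T cell receptor complex genes Cd3d, by 2.36 ± 0.59 (adjusted p = 0.0320), and Cd3e, by 2.04 ± 0.37 (adjusted p = 0.00571). The Cd3d call held under 9 of 19 alternatives, with differences of 1.36 to 2.74 and adjusted p up to 0.134, and that of Cd3e under all 19.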
